A study of Homo sapiens with 12 samples.

Results

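The proteasome subunit genes were followed across wild-type and ASAP2 knockout cells of Panc1 and MiaPaCa2, a pair of human lines of pancreatic ductal adenocarcinoma. Members were the genes whose symbol is PSMA, PSMB, PSMC or PSMD followed by a number, PSMB8 and PSMB9 left out, together with the activators PSME1, PSME2, PSME3 and PSME4, provided that their mean over the 12 libraries reached 1 FPKM (fragments per kilobase of transcript, scaled to the fragments mapped in the library). Of the 22650 symbols in the data, 40 matched the names and 39 reached the minimum. The excluded gene was PSMB11, the catalytic subunit of the thymus, whose mean was 0.003 FPKM. The 39 genes comprise 15 of the core particle, 20 of the regulatory particle and 4 activators. The rule used no difference between groups.

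The study comprised 4 groups of 3 libraries each: wild-type Panc1, ASAP2 knockout Panc1, wild-type MiaPaCa2 and ASAP2 knockout MiaPaCa2, all of established cell lines and with no other allele or treatment given in the labels. ASAP2 encodes a GTPase-activating protein for Arf proteins, which control membrane traffic and the actin cytoskeleton. The sources used here do not give the way in which the gene was knocked out, the number of clones per line, or whether the 3 libraries of a group are separate cultures. The p-values therefore refer to the spread among these libraries, which may be technical. In knockout MiaPaCa2 the ASAP2 mRNA was at 12.3 ± 1.29 FPKM against 13.5 ± 0.320 FPKM in the wild-type (SD, n = 3, adjusted p = 0.197), so its level does not check the label of that group, whereas it fell in Panc1 (log2 change -1.36, adjusted p = 1.5e-08). Read depth is unknown. Of 7 epithelial and ductal markers, 6 reached 1 FPKM in Panc1 and 4 in MiaPaCa2, where KRT7, EPCAM and CDH1 stayed below 0.1 FPKM. Of 6 fibroblast markers COL1A2 alone reached 1 FPKM, in MiaPaCa2. Of 6 leukocyte markers CD68 alone did so, in both lines.

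The proteasome is the protease that degrades proteins tagged with ubiquitin. Its core particle is a barrel of stacked rings: outer rings of alpha subunits, which gate the entrance, and inner rings of beta subunits, some of which carry the active sites. The regulatory particle caps the barrel, with a base of ATPases that unfold the substrate and a lid that removes its ubiquitin chain, and activators of the PSME family can take the place of the cap. Subunits are needed in fixed proportion in the finished particle, and their genes are commonly transcribed together under NFE2L1. Fast-dividing cells such as those of pancreatic cancer rely on it for protein quality control.

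All 39 genes were expressed in all 4 groups. FPKM is a value per transcript length, so levels of different genes can be set side by side. In wild-type Panc1 they ran from 12.8 FPKM (PSMB10) to 910.4 FPKM (PSMC4), with a median of 51.1 FPKM, and the second highest was the lid gene PSMD8 at 210.0 FPKM. In wild-type MiaPaCa2 the range was 13.6 FPKM (PSMB10) to 214 FPKM (PSMB4) with a median of 77.3 FPKM. Although the subunits of a ring are present once each in the ring, their mRNA levels were far apart. In wild-type Panc1 the alpha ring spanned 14.1 FPKM (PSMA5) to 165 FPKM (PSMA7), a ratio of 11.6, and the constitutive beta ring 37.9 FPKM (PSMB2) to 174 FPKM (PSMB4), a ratio of 4.59. The lid spanned 13.5 FPKM (PSMD12) to 210.0 FPKM (PSMD8), a ratio of 15.6. The lowest gene of each of these sets was the lowest in every group. The spread between libraries was small beside these gaps: the median coefficient of variation over the members was 2.62% in wild-type Panc1, 2.39% in knockout Panc1, 3.61% in wild-type MiaPaCa2 and 7.35% in knockout MiaPaCa2.

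**Figure D1:**
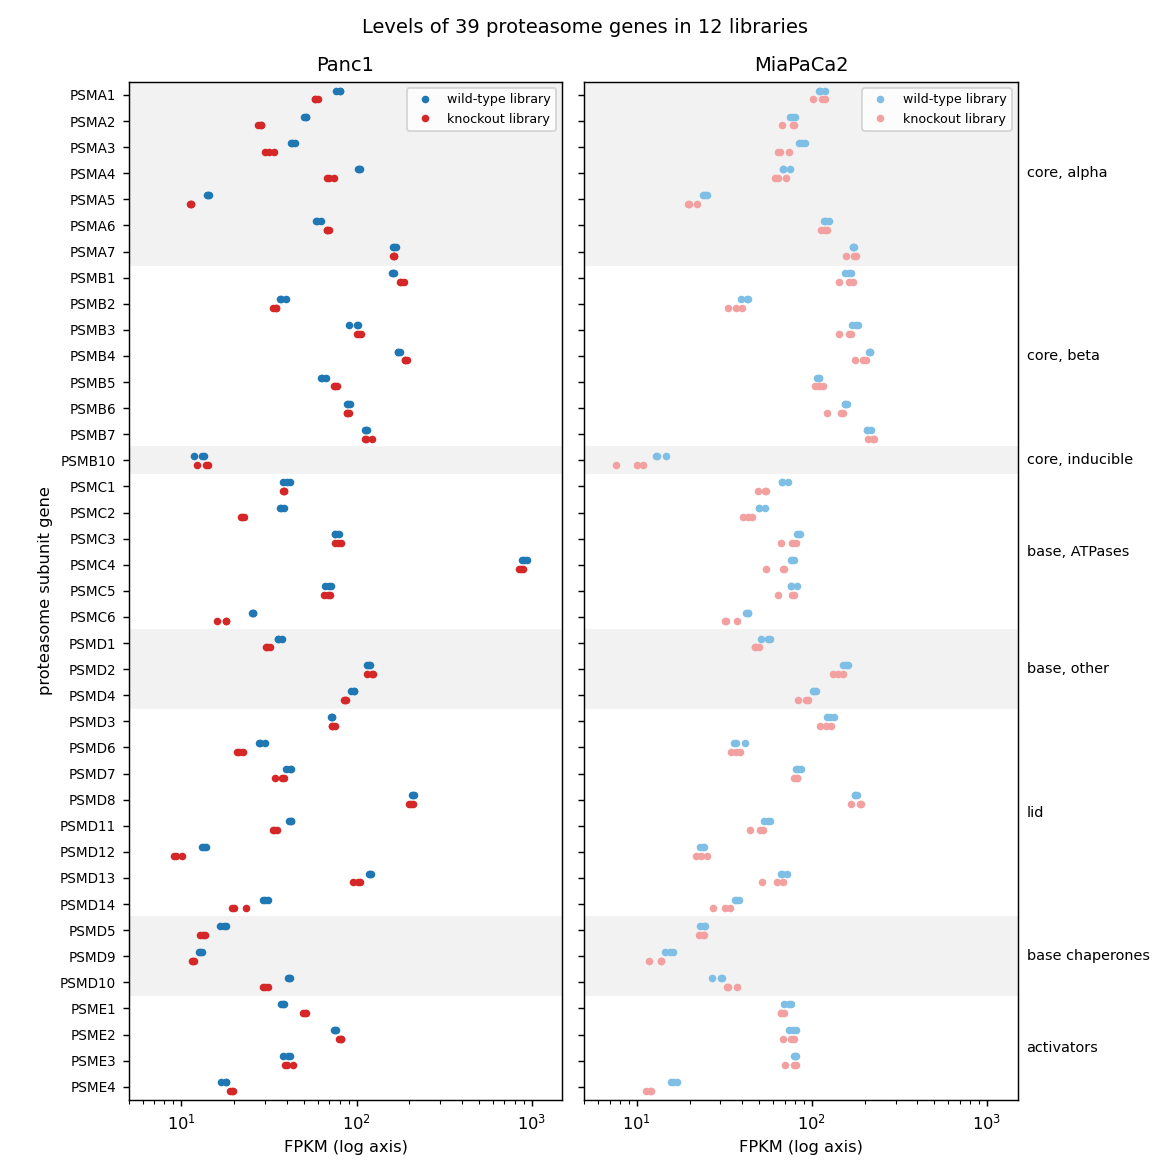
Levels of the 39 genes, 1 point per library, in FPKM on a log axis, with wild-type libraries above and knockout libraries below within each gene's row, for Panc1 (left) and MiaPaCa2 (right). PSMC4 stands apart in Panc1 at 849 to 941 FPKM and lies among the other ATPases in MiaPaCa2.

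Some levels are less certain than their spread shows. Many members have processed copies elsewhere in the genome whose names mark them as pseudogenes, 13 for PSMC1, 6 for PSME2 and 4 for PSMA6, and the sources used here do not say how reads with several mapping places were counted. For 9 members a gene on the opposite strand overlaps and reached 1 FPKM: PSMA3, PSMC1, PSMC2, PSMC5, PSMD5, PSME1, PSME2, PSME3 and PSME4. Without knowledge of strand in the counting, the reads of such a pair cannot be told apart.

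The wild-type lines were compared first, as the ground on which the knockouts were made. With Benjamini-Hochberg adjustment over 13340 genes at 0.05, limma called 6 members higher and 26 lower in Panc1 than in MiaPaCa2, 32 of 39 (82.1%). Of all genes tested, 82.7% were called, 41.8% higher and 40.9% lower. The 2 groups did not overlap in 34 members, 5 higher and 29 lower, beside 84.9% of all genes (42.8% higher and 42.1% lower). The median difference of the members was -0.40 on the scale of log2(FPKM + 1), where that of all genes was 0.00. All members summed to 3475 ± 36.5 FPKM in wild-type Panc1 and 3392 ± 42.1 FPKM in wild-type MiaPaCa2 (SD, n = 3). Leaving PSMC4 aside, a choice made after its values were seen, the sums were 2564 ± 13.6 FPKM and 3315 ± 40.6 FPKM. In bulk RNA a lower level per cell and a lower share of expressing cells cannot be told apart.

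The lower members came from both rings of the core, from the base and the lid, and from the activators. PSMA3, an alpha subunit, stood at 42.00, 42.6 and 44.3 FPKM in the wild-type Panc1 libraries and 84.5, 91.3 and 87.5 FPKM in those of MiaPaCa2 (log2 difference -1.01, SE 0.058, adjusted p = 2.6e-09). PSMD7, the lid partner of the deubiquitinase PSMD14, showed 41.7, 39.4 and 42.4 against 83.3, 81.2 and 86.7 FPKM (difference -1.01, adjusted p = 3.6e-10). For PSME3, the activator of the nucleus, the values were 37.95, 40.6 and 41.5 against 80.02, 78.9 and 80.96 FPKM (difference -0.98, adjusted p = 3.9e-09). In these 3 genes every Panc1 library lay below every MiaPaCa2 library. The alpha subunit gene PSMA6 (-0.99) and the activator PSME1 (-0.93) were lower by similar amounts, and the catalytic subunits followed, with differences of -0.89 for PSMB7, which carries the trypsin-like site, -0.78 for PSMB6, which carries the caspase-like site, and -0.75 for PSMB5, which carries the chymotrypsin-like site. The 6 higher members were PSMC4, PSMD13 (0.79), PSMA4 (0.55), PSMD10 (0.48), PSMD8 (0.24) and PSME4 (0.11). Tested genes within 1 Mb were higher in Panc1 too, with medians of 1.20 around PSMD13, 0.40 around PSMA4 and 1.54 around PSMD10. Around PSMD8 the median was 1.14 and around PSME4 0.20. Around the lower members named above the medians were negative: PSMA3 -0.20, PSMD7 -0.32, PSME3 -0.50, PSMA6 -0.49, PSME1 -0.47, PSMB7 -0.36, PSMB6 -0.27 and PSMB5 -0.53. They were positive around the lower members PSMA1 (0.35), PSMD6 (0.49) and PSMD11 (0.37). The part of position was not tested. PSMD13, a lid subunit, stood at 119, 118 and 120.3 FPKM in Panc1 and 66.4, 67.5 and 71.7 FPKM in MiaPaCa2, and PSMA4, whose tail helps to close the gate of the core, at 105, 104 and 103 and 68.7, 68.7 and 74.5 FPKM. The groups did not overlap in either gene. Within a ring the differences ran both ways, since PSMA4 was higher and PSMA3 and PSMA6 were lower in the same libraries. The call for PSME4 ended after a correction for GC content and transcript length, where its difference was -0.08, and that of PSMD8 became 0.13.

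PSMC4 differed most of all members. It encodes an ATPase of the base and lies at chr19:40477072-40487671 (GRCh37, hg19). The wild-type Panc1 libraries held 885, 905 and 941 FPKM and the wild-type MiaPaCa2 libraries 75.9, 76.6 and 78.9 FPKM, a log2 difference of 3.54 (SE 0.069, adjusted p = 5.2e-14). Knockout libraries kept the gap, with 849, 871 and 895 FPKM in Panc1 and 69.05, 54.96 and 67.9 FPKM in MiaPaCa2. No Panc1 library came near a MiaPaCa2 library. The ATPases form a ring in which each is present once, and their other 5 genes lay between 25.5 and 76.7 FPKM in wild-type Panc1. PSMC4 made up 78.5 ± 0.914% of the summed ATPase FPKM in wild-type Panc1, 79.5 ± 0.331% in knockout Panc1, 19.2 ± 0.220% in wild-type MiaPaCa2 and 18.7 ± 0.754% in knockout MiaPaCa2 (SD, n = 3 each).

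The genes beside PSMC4 were higher in Panc1 too. From PAF1 to AKT2 (chr19:39876269-40791443) there are 20 tested genes, and their median difference between the wild-type lines was 3.46. TTC9B alone lay below 2, at 0.76, and 9 genes lay above PSMC4. FBL, the nucleolar methyltransferase fibrillarin, stood at 1652 FPKM in Panc1 and 140.3 FPKM in MiaPaCa2, and AKT2, a kinase of the insulin pathway, at 523 and 29.5 FPKM. The 17 tested genes within 1 Mb of PSMC4 that lie beyond AKT2 had a median of -0.05, and the other 928 genes of chromosome 19 one of -0.10. The ends of the run were set after the values were seen, and DNA was not measured. The tested genes within 1 Mb of PSMC4 that lie before PAF1 were not summarized apart, so these values do not bound the rise on that side. PSMD8 lies on the same chromosome outside the run, and the 35 tested genes within 1 Mb of it had a median difference of 1.14.

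**Figure D2:**
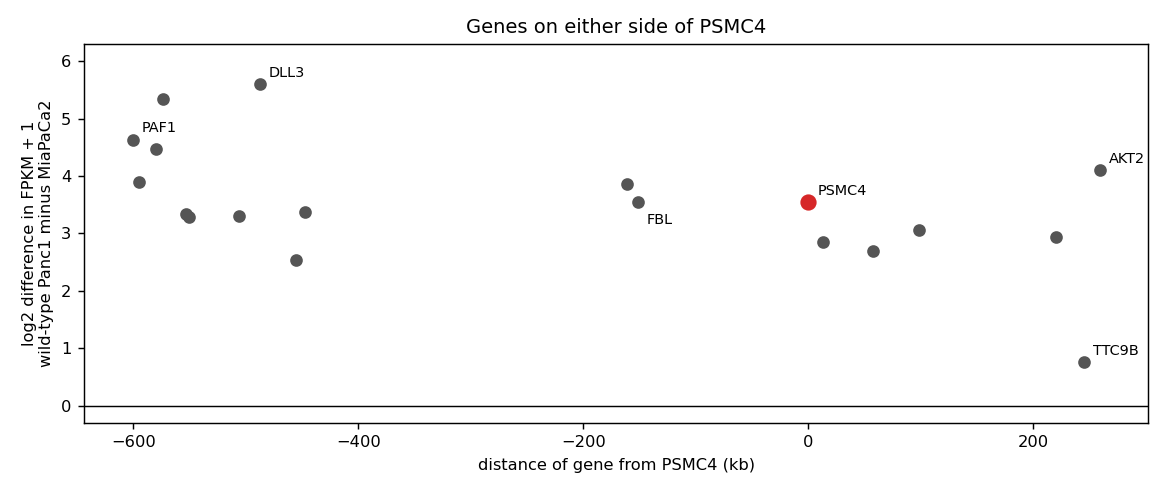
Difference between wild-type Panc1 and wild-type MiaPaCa2 in log2(FPKM + 1) for 19 of the 20 tested genes from PAF1 to AKT2, placed by their distance from PSMC4 in kb (a microRNA gene within AKT2 is not drawn). PSMC4, in red, stands at 3.54 among neighbours that, apart from TTC9B, all lie above 2.

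In Panc1, ASAP2 knockout went with lower mRNA of most alpha ring and lid genes, with no lower call in the constitutive beta ring, and with higher PSME1. Of the 39 members 6 were called higher and 17 lower (59.0%), beside 63.5% of all genes tested, of which 21.8% were higher and 41.6% lower. The wild-type and knockout libraries did not overlap in 26 members, 7 higher and 19 lower, beside 70.1% of all genes (24.7% higher and 45.3% lower). The share called was near that of all genes, and so was the median change, -0.06 against -0.10. The changes ran from -0.84 to 0.41. How the libraries are scaled bears on the split: scaled by the median ratio, 14 members were higher and 13 lower, scaled to the same sum 3 and 21, and after quantile normalization 4 and 19. The split of all 13340 genes moved as well. Scaled by the median ratio, 4271 were higher and 3922 lower, scaled to the same sum 2315 and 6525, and after quantile normalization 3940 and 4263.

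**Figure D3:**
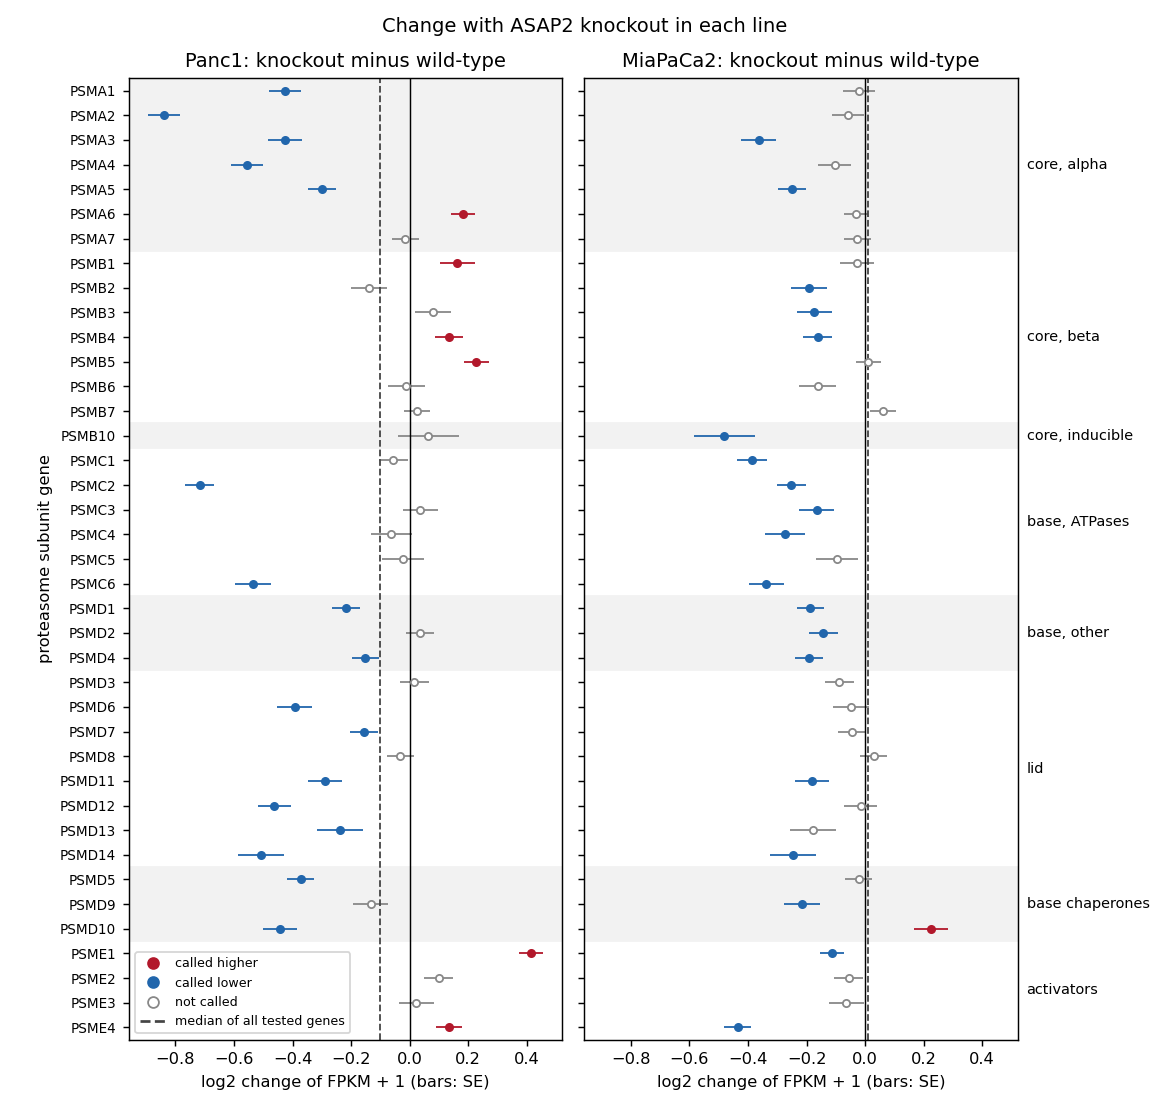
Change of each gene with ASAP2 knockout in log2(FPKM + 1), with its SE, in Panc1 (left) and MiaPaCa2 (right). Filled points passed an adjusted p of 0.05 (red higher, blue lower), and the dashed line is the median of all genes tested (-0.10 in Panc1, 0.01 in MiaPaCa2). The changes run from -0.84 to 0.41 in Panc1 and from -0.48 to 0.22 in MiaPaCa2.

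Of the 7 alpha ring genes 5 fell, 1 rose and 1 was not called, with a median change of -0.43. The count of falls was 5 under each of the other scalings and 4 after a correction for GC content and transcript length, where the median was -0.14. PSMA2 (chr7:42956427-42971784) fell most of all members, from 50.3, 51.5 and 51.5 FPKM in the wild-type libraries to 28.4, 27.4 and 28.6 FPKM with knockout (log2 change -0.84, SE 0.054, adjusted p = 9.5e-08). PSMA4 went from 105, 104 and 103 to 74.3, 67.4 and 69.4 FPKM (change -0.56, SE 0.056, adjusted p = 3.4e-06). Every knockout library of these genes lay far below every wild-type library. PSMA1 (-0.43), PSMA3 (-0.43) and PSMA5 (-0.30) fell as well, and after that correction their changes were -0.15, -0.14 and 0.06, the last of them not called and in the opposite direction. PSMA6 rose from 62.3, 59.1 and 58.98 to 67.5, 67.5 and 69.9 FPKM (change 0.18, adjusted p = 0.0021), again without overlap. PSMA7, the most abundant of the ring, stood at 165 ± 3.55 and 163 ± 1.76 FPKM (adjusted p = 0.796).

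Of the 7 constitutive beta genes 3 rose and none fell, the other 4 not being called, with a median change of 0.08. PSMB5 rose from 62.97, 67.03 and 63.4 to 74.5, 75.3 and 77.1 FPKM (log2 change 0.23, SE 0.043, adjusted p = 0.00052). PSMB1, a beta subunit without an active site, rose from 164, 159 and 162 to 186, 178 and 180.2 FPKM (change 0.16, adjusted p = 0.0267). In both genes all 3 knockout libraries lay above all 3 wild-type libraries. The call for PSMB1 ended under 7 of 23 alternatives, among them those without wild-type replicate 2 or 3 or knockout replicate 1 or 3 (adjusted p up to 0.22). PSMB4, among the last subunits to join the ring, rose by a similar amount (0.13, adjusted p = 0.0287). Its call ended with scaling to the same sum, after quantile normalization, and without wild-type replicate 1 or 2 or knockout replicate 2 or 3. PSMB6 (-0.01) and PSMB7 (0.03), the other catalytic subunits, stood at adjusted p = 0.895 and 0.629. PSMB2 (-0.14, adjusted p = 0.066) was not called, but it was lower with scaling to the same sum, with array weights, with the replicate number as a block, with Panc1 fitted alone, and without knockout replicate 2 or 3 of MiaPaCa2. Scaled to the same sum 1 of the 7 was higher and 1 lower, after quantile normalization 1 higher and none lower, and scaled by the median ratio 5 higher and none lower.

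The ratio of the rings is not altered by scaling a library with a single factor. Summed over 7 genes each, beta over alpha FPKM was 1.43, 1.43 and 1.44 in the wild-type Panc1 libraries and 1.80, 1.84 and 1.85 in the knockout libraries, 1.43 ± 0.00879 against 1.83 ± 0.0278 (SD, n = 3). Each knockout library was above each wild-type library. In MiaPaCa2 the ratio was 1.62, 1.61 and 1.58 in wild-type and 1.60, 1.59 and 1.64 in knockout libraries, which overlapped. The summed alpha FPKM of Panc1 went from 516 ± 4.43 to 431 ± 5.27, and the summed beta FPKM from 739 ± 10.6 to 790.0 ± 3.91. The transcripts of the rings differ in base composition, with a median GC content of 41.4% over the alpha genes and 52.0% over the constitutive beta genes, and the part of this in the ratio was not tested.

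**Figure D4:**
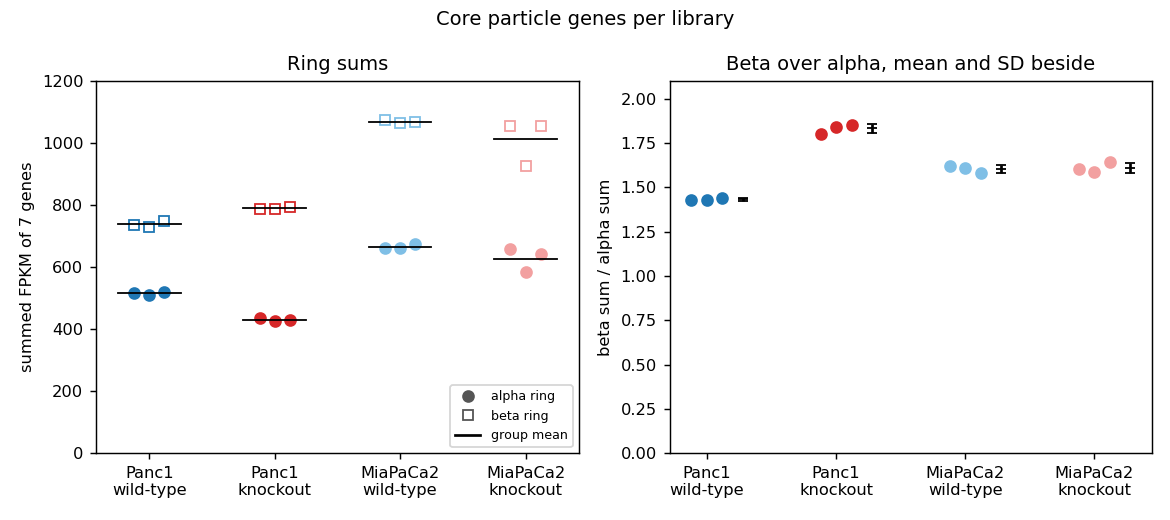
Left, summed FPKM of the 7 alpha genes (circles) and the 7 constitutive beta genes (squares) in each library, with the group mean as a line. Right, the ratio of the sums per library with the mean and SD beside it: 1.43 in wild-type and 1.83 in knockout Panc1, 1.60 and 1.61 in MiaPaCa2.

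In the regulatory particle of Panc1 12 of 20 genes fell (60%) and none rose, beside 41.6% and 21.8% of all genes. Scaled by the median ratio 8 were lower and 3 higher, beside 3922 and 4271 of 13340 genes. Without the 3 chaperones of base assembly, 10 of 17 fell (58.8%) and none rose. The median change of these 17 was -0.16, and that of all genes -0.10. Of the 6 ATPases, PSMC2 and PSMC6 fell. PSMC2 (chr7:102969017-103010793) went from 38.4, 36.7 and 36.8 to 22.01, 22.7 and 22.2 FPKM (log2 change -0.72, SE 0.049, adjusted p = 1.6e-07), and PSMC6 from 25.2, 25.7 and 25.5 to 17.99, 17.9 and 15.99 FPKM (change -0.54, adjusted p = 9.6e-06). The groups lay well apart in both. Their 4 partners in the ring had changes between -0.06 and 0.04, none of them called. The scaffold PSMD1 (-0.22) and the ubiquitin receptor PSMD4 (-0.15) of the base fell, and the scaffold PSMD2 was not called (0.04, adjusted p = 0.545).

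In the lid 6 of 8 genes fell, with a median change of -0.26, and PSMD3 (0.02) and PSMD8 (-0.03) were not called. The count of falls was 7 with scaling to the same sum and after quantile normalization, and 4 with 1 rise with scaling by the median ratio. After the GC and length correction 5 fell and the median was -0.14. PSMD14, the deubiquitinase that strips the chain from the substrate, went from 31.2, 30.1 and 29.2 to 23.3, 20.02 and 19.5 FPKM (log2 change -0.51, SE 0.078, adjusted p = 0.00011). PSMD12, a lid subunit, went from 13.4, 13.9 and 13.1 to 10.1, 9.08 and 9.31 FPKM (change -0.46, adjusted p = 1.8e-05). Neither gene had overlapping groups, and the corrected changes were -0.25 for PSMD14 and -0.09 for PSMD12, the second not called (adjusted p = 0.18). PSMD6 (-0.39), PSMD11 (-0.29), which helps to tie the cap to the core, PSMD13 (-0.24) and PSMD7 (-0.16) made up the rest. The call for PSMD13 ended with scaling by the median ratio and without knockout replicate 1 (adjusted p up to 0.28), and that for PSMD7 with the same scaling, without wild-type replicate 3 or knockout replicate 2, and after the GC and length correction, where its change was 0.01. Of the genes that bear subunit names but encode chaperones of base assembly, PSMD10, also known as the oncoprotein gankyrin, went from 41.9, 40.8 and 41.2 to 31.1, 29.2 and 30.02 FPKM (change -0.44, adjusted p = 2.9e-05, and -0.13 after the correction), PSMD5 fell by 0.37 on the log2 scale, and PSMD9 was not called (-0.13, adjusted p = 0.0718).

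Among the activators PSME1 (chr14:24605372-24608176) rose most of all members, from 37.1, 37.9 and 38.3 FPKM to 49.7, 50.6 and 51.6 FPKM (log2 change 0.41, SE 0.041, adjusted p = 2.8e-06). PSME1 and PSME2 encode the partner chains of one activator ring, which immune signals induce. PSME2 stood at 76.6, 74.2 and 74.9 and 79.1, 81.3 and 81.5 FPKM, a change of 0.10 that was not called (adjusted p = 0.101) although the groups did not overlap. It was called higher with scaling by the median ratio, with array weights, with Panc1 fitted alone and without knockout replicate 2 of MiaPaCa2. After the GC and length correction it was called as well (0.15, adjusted p = 0.008). The ratio of PSME1 to PSME2 was 0.502 ± 0.0157 in wild-type and 0.628 ± 0.00568 in knockout Panc1 (SD, n = 3). PSME4, whose product caps nuclear proteasomes, rose by 0.13 (adjusted p = 0.0207), a call that ended with scaling to the same sum and without wild-type replicate 3 or knockout replicate 1. PSME3 was not called (0.02).

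Falls in Panc1 went with low GC content of the transcript. Over the 39 members the change and the GC content had a Pearson correlation of 0.70 and a Spearman correlation of 0.67, across genes that share the same libraries and are not independent replicates, and over 12042 tested genes with a GC value the correlations were 0.37 and 0.43. Of the 19 members with GC content below 47.9%, 15 fell and 2 rose (78.9% lower and 10.5% higher, beside 59.8% and 10.6% of all genes below that value). Of the 20 at or above it, 2 fell and 4 rose (10% and 20%), where 27.9% of all genes fell and 32.5% rose. PSMA2 has a GC content of 39.5%, PSMC2 of 38.8% and PSMC6 of 36.4%, whereas PSME1 has 51.6% and PSMB5 52.97%. After each library was corrected for GC content and transcript length, which was chosen after the data were seen, 7 members were higher and 12 lower. Of the 12042 genes so corrected, 3537 were higher and 3782 lower. The corrected changes of the largest falls were -0.50 for PSMA2, -0.38 for PSMC2 and -0.32 for PSMA4, all still called, and that of PSME1 was 0.43. That of PSMC6 became -0.12, of PSMD1 -0.05, of PSMD5 -0.10, of PSMD6 -0.21, of PSMD11 -0.17, of PSMA6 0.38, of PSMB1 0.26 and of PSME4 0.34. PSMA5, PSMC6, PSMD1, PSMD5, PSMD7 and PSMD12 were no longer called. PSMD8 (-0.11) and PSME2 (0.15), not called before the correction, passed after it. The part of base composition in the Panc1 changes was not tested beyond this. In MiaPaCa2 the same correlations over the members were -0.04 and 0.01.

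**Figure D5:**
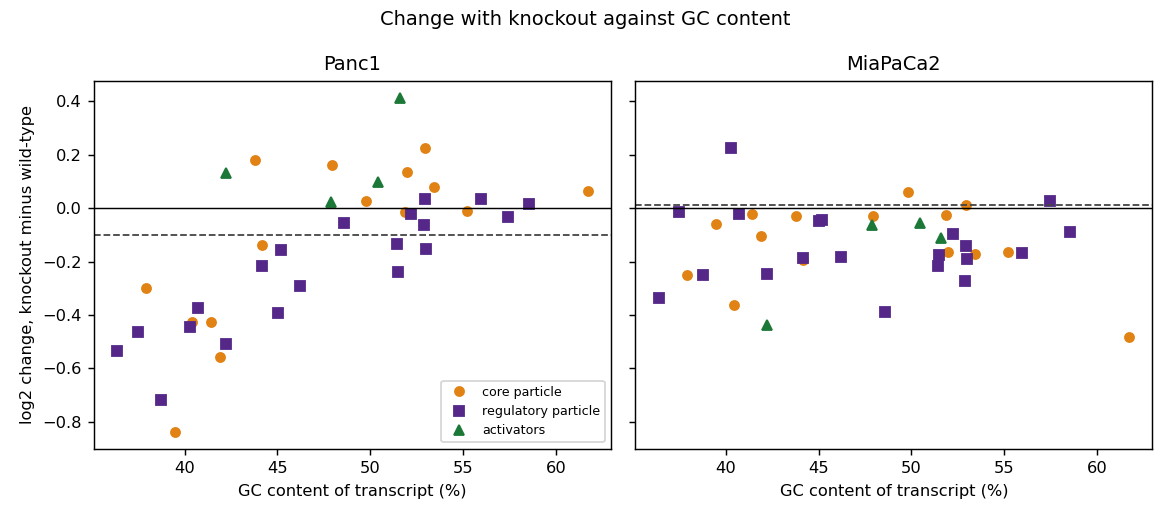
Change with knockout in log2(FPKM + 1) of the 39 genes against the GC content of their transcripts in percent, in Panc1 (left) and MiaPaCa2 (right), with the dashed line at the median of all genes tested. In Panc1 low-GC genes of both particles lie lowest (Pearson 0.70 over 39 genes), and in MiaPaCa2 no such slope is seen (-0.04).

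Position was looked at as well. PSMA2 and PSMC2 both lie on chromosome 7, far apart. The 9 tested genes within 1 Mb of PSMA2 had a median change of -0.53 in Panc1, the 15 around PSMC2 one of -0.35, and the 580 tested genes of chromosome 7 that are not members one of -0.33. The 38 neighbours of PSME1 had a median of 0.02, and PSME1 lay above 37 of them. For the other falls of the alpha ring and the lid, the neighbours (2 to 40 genes each) went both ways. Their medians lay near or below the gene's own change around PSMA1 (-0.61), PSMA3 (-0.43), PSMA5 (-0.28), PSMD11 (-0.28) and PSMD13 (-0.27). They lay above it around PSMA4 (-0.13), PSMD6 (-0.19), PSMD7 (0.01), PSMD12 (-0.03) and PSMD14 (0.31). The part of position in these changes was not tested.

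In MiaPaCa2, knockout libraries had lower mRNA of 5 of 6 ATPases, of the 3 other base genes, of PSMB10 and of PSME4. Of the 39 members 1 was called higher and 19 lower (51.3%), beside 34.1% of all genes tested, of which 17.8% were higher and 16.3% lower. Without overlap were 20 members, 1 higher and 19 lower, beside 43.5% of all genes (23.0% higher and 20.5% lower). The median change of the members was -0.14 and that of all genes 0.01. The falls were small, -0.48 at most, and they rest in part on 1 library: knockout replicate 2 was the lowest of the 6 MiaPaCa2 libraries for 33 of 39 members (84.6%), and for 24.7% of all genes tested. Without it 1 member was higher and 14 lower, the calls for PSMB2, PSMB3, PSMC3, PSMD2 and PSMD11 being lost, and the median change of the members was -0.07. In that fit 2269 of 13321 genes were higher and 1957 lower. Without wild-type replicate 2 or 3, 11 members were lower, beside 1650 of 13337 and 1678 of 13341 genes. With this line fitted alone 11 were lower as well, beside 1667 of 11981 genes. After quantile normalization 2 were higher and 11 lower, beside 2169 and 2038 of 13340 genes.

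Of the 6 ATPases 5 fell, with a median change of -0.26, and PSMC5 did not pass (-0.10, adjusted p = 0.333). PSMC1, which helps to open the gate of the core, went from 67.3, 67.1 and 73.2 FPKM to 54.99, 49.3 and 53.8 FPKM with knockout (log2 change -0.39, SE 0.051, adjusted p = 0.00014). PSMC6 went from 43.04, 42.2 and 43.4 to 37.4, 31.9 and 32.2 FPKM (change -0.34, adjusted p = 0.0012), and PSMC4 from 75.9, 76.6 and 78.9 to 69.05, 54.96 and 67.9 FPKM (change -0.27, adjusted p = 0.0096). All knockout libraries lay below all wild-type libraries in these 3 genes. The change of PSMC4 was -0.17 without knockout replicate 2. PSMC2 (-0.25) and PSMC3 (-0.17) fell less. The base genes PSMD1 (-0.19), PSMD2 (-0.14) and PSMD4 (-0.19) all fell. After quantile normalization 4 ATPases and 1 of these 3 base genes were lower.

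Of the 8 lid genes PSMD11 (-0.18) and PSMD14 (-0.25, adjusted p = 0.0278) fell, and after quantile normalization none of the 8 was called. The call for PSMD14 ended under 6 of the alternatives, among them those without any 1 wild-type replicate or without knockout replicate 3 (adjusted p up to 0.10). In the alpha ring 2 of 7 fell. PSMA3 went from 84.5, 91.3 and 87.5 to 74.1, 64.03 and 66.1 FPKM (log2 change -0.36, SE 0.058, adjusted p = 0.00056) without overlap, and PSMA5 fell by 0.25 on the log2 scale. In the constitutive beta ring PSMB2 (-0.19), PSMB3 (-0.17) and PSMB4 (-0.16) fell, and after quantile normalization 1 gene of this ring was higher and 1 lower. The calls for PSMB2, PSMB3, PSMB4, PSMC3, PSMD2, PSMD9 and PSMD11 each ended without 1 or another wild-type replicate of this line. PSMD10 was the 1 member called higher, from 30.6, 27.03 and 30.2 to 33.3, 32.6 and 37.3 FPKM (change 0.22, adjusted p = 0.0102), all knockout libraries lying above the wild-type ones. PSMD9 fell (-0.22).

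PSMB10, the inducible subunit that replaces PSMB7 in the immunoproteasome, fell most in MiaPaCa2 in the fit to uncorrected values of all 12 libraries. Its level was 12.8, 14.8 and 13.1 FPKM in wild-type libraries against 10.1, 7.63 and 10.8 FPKM in those with knockout (log2 change -0.48, SE 0.10, adjusted p = 0.0038), with knockout replicate 2 the lowest and no overlap. Its call held under all 23 alternatives, but its rank did not. Without knockout replicate 2 the change of PSMB10 was -0.34 and that of PSME4 -0.44. Corrected for GC content and transcript length, the changes were -0.42 for PSMB10, -0.43 for PSMC1 and -0.49 for PSME4. In Panc1 PSMB10 stood at 13.1, 11.8 and 13.5 and 12.3, 13.9 and 14.1 FPKM, which overlapped. As a percentage of PSMB7 it was 6.46 ± 0.644 in wild-type and 4.32 ± 0.601 in knockout MiaPaCa2, and 11.3 ± 0.801 and 11.7 ± 0.701 in Panc1 (SD, n = 3). PSME4 (chr2:54091206-54198130) went from 16.02, 15.7 and 16.9 to 11.97, 11.9 and 11.3 FPKM (change -0.44, SE 0.045, adjusted p = 2.2e-05), again without overlap. The 6 tested genes within 1 Mb of PSME4 had a median of -0.35 in MiaPaCa2 and the 785 other tested genes of chromosome 2 one of -0.15. The neighbours of PSMC1 (-0.21), PSMD14 (-0.23, over 3 genes) and PSMD9 (-0.18) had negative medians too. Around the remaining members called lower in this line the medians lay between -0.10 and 0.13. The part of position in these falls was not tested. PSME1 fell by 0.11 on the log2 scale, a call that ended under 14 of 23 alternatives (adjusted p up to 0.45), among them the loss of any library other than wild-type replicate 2 and knockout replicate 2 of MiaPaCa2. PSME2 (-0.06) and PSME3 (-0.06) were not called.

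The change in MiaPaCa2 was subtracted from that in Panc1, and this difference was itself tested. It passed for 17 members (43.6%), 9 higher and 8 lower, beside 57.4% of all genes, 20.0% higher and 37.4% lower. The largest differences were -0.78 for PSMA2 (SE 0.077, adjusted p = 5.6e-06), -0.67 for PSMD10 (adjusted p = 3.1e-05), 0.57 for PSME4 (adjusted p = 1.6e-05), 0.55 for PSMB10 (adjusted p = 0.0073) and 0.53 for PSME1 (adjusted p = 1.2e-05). PSMD10 fell in Panc1 and rose in MiaPaCa2, whereas PSME1, PSME4 and PSMB4 rose in Panc1 and fell in MiaPaCa2. Of these calls, the rises of PSME4 and PSMB4 in Panc1 and the falls of PSME1 and PSMB4 in MiaPaCa2 ended under some alternatives. PSMA3, PSMA5, PSMC2, PSMC6, PSMD1, PSMD4, PSMD11 and PSMD14 fell in both lines, and of these PSMC2 fell further in Panc1 (difference -0.47, adjusted p = 0.00014). PSMA7, PSMB6, PSMB7, PSMC5, PSMD3, PSMD8, PSME2 and PSME3 were called in neither. After the GC and length correction 17 members had a higher and 4 a lower difference, with scaling by the median ratio 18 and 8, with scaling to the same sum 7 and 12, and after quantile normalization 6 and 10. Over all genes the correction gave 3143 higher and 3225 lower of 12042. Of 13340 genes, the median ratio gave 3736 and 3476, the same sum 2205 and 5800, and quantile normalization 3388 and 3705. With the correction the difference of PSMA2 was -0.45 and that of PSMD10 -0.36. PSMC2 was among the differences that no longer passed after the correction. The smallest called difference, 0.18 for PSMD2 (adjusted p = 0.0426), was lost under most alternatives.

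Other genes of the pathway were read from lists. For all list counts here and below, the shares of all genes called in Panc1 were 21.8% higher and 41.6% lower. In MiaPaCa2 these shares were 17.8% and 16.3%, and between the wild-type lines 41.8% and 40.9%. Of 10 parts of the proteasome that the naming rule leaves out, 9 were tested. In Panc1 5 of them fell and 2 rose, and in MiaPaCa2 1 rose and 1 fell. SEM1, a small lid subunit, went from 54.7, 57.1 and 54.8 to 33.7, 34.1 and 34.9 FPKM in Panc1 (log2 change -0.68). The deubiquitinase UCHL5 (-0.70) and the ligase UBE3C (-0.63) fell as well, and the core regulator PSMF1 rose (0.36). In MiaPaCa2 SEM1 rose (0.18) and the ubiquitin receptor ADRM1 fell (-0.27). Of 6 assembly chaperones of the core and base, PSMG1 (-0.35), PSMG3 (-0.23) and POMP (-0.42) fell in Panc1 and none was called in MiaPaCa2. Between the wild-type lines 5 of the 6 were lower in Panc1, PSMG4 at -1.82, and PAAF1 was higher (0.80).

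Of 12 genes that act in the transcription of proteasome genes, 6 rose and 4 fell in Panc1, and 4 rose and 2 fell in MiaPaCa2. NFE2L1, the main activator, went from 62.5, 63.8 and 62.6 to 80.3, 72.3 and 75.1 FPKM in Panc1 (log2 change 0.27) and from 36.4, 38.99 and 38.8 to 43.8, 45.3 and 42.01 FPKM in MiaPaCa2 (change 0.19), higher in each line. In the same comparisons 6 members were called higher and 17 lower in Panc1, beside 21.8% and 41.6% of all genes. In MiaPaCa2 1 was higher and 19 lower, beside 17.8% and 16.3% of all genes. Its activity is set by processing of the protein, which RNA does not show. Of 16 tested genes for ubiquitin and for factors that shuttle it to the proteasome, 6 rose and 5 fell in Panc1, and 3 rose and 4 fell in MiaPaCa2, with the autophagy receptor SQSTM1 rising by 0.56. UBA1, the main activating enzyme of ubiquitin, fell in both (-0.32 and -0.29).

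The immunoproteasome subunits that the rule leaves out were low. PSMB8 had mean levels of 1.26 (wild-type) and 1.73 FPKM (knockout) in Panc1, and 0.216 and 0.104 FPKM in MiaPaCa2. PSMB9, whose mean was too low for it to be tested, stood at 0.608, 0.534 and 0.659 FPKM in the wild-type and 1.16, 1.30 and 1.37 FPKM in the knockout libraries of Panc1, and at 0.371, 0.320 and 0.348 against 0.0440, 0.0550 and 0.0400 FPKM in MiaPaCa2. Its groups did not overlap in either line, higher with knockout in Panc1 and lower in MiaPaCa2. Of 12 tested interferon-induced genes, PSMB8 among them, 8 fell and none rose in MiaPaCa2, with a median change of -1.35, and 2 rose and 3 fell in Panc1. ISG15, a ubiquitin-like protein, went from 161, 192 and 198 to 28.2, 16.7 and 23.5 FPKM in MiaPaCa2. IRF1, a transcription factor known to act on immunoproteasome genes, fell by 0.91 on the log2 scale there and was not called in Panc1 (0.23, adjusted p = 0.115). PSMB8, TAP1, IRF7 and IRF9 were not called in MiaPaCa2. The 8 that fell moved with PSMB10 there, and their part in its fall was not tested.

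Promoter sequence was read for 34 of the 39 members from RefSeq (GRCh38.p14), as the 250 bases before and 50 after each start, in 40 windows since some genes have several starts. The core of the element through which interferon factors act, GAAA followed by 2 bases of any kind and GAAA again, was searched for on both strands after the values had been seen. It was found in 3.6% of 35116 promoters and in 5 of the 40 member promoters (12.5%), those of 5 genes: PSMA4, PSMB4, PSMB10, PSME1 and PSME2. The stretches before the start are shown for PSMB10, which fell in MiaPaCa2, and for PSME2, with the match in capitals. PSME2 was called in neither line, but was called higher in Panc1 under some alternatives. Both are on the reverse strand of their chromosome and given 5′ to 3′ in the direction of the gene, PSMB10 at chr16:67936851-67936970 and PSME2 at chr14:24146611-24146730.
PSMB10: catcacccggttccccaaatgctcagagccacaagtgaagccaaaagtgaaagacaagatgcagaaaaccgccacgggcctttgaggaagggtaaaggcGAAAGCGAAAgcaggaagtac
PSME2: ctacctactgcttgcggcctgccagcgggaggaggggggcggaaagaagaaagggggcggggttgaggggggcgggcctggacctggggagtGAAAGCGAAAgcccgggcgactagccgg
Each holds 1 match, close to the start, with the same bases GAAAGCGAAA. A match describes these letters and does not show binding.

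TGACNNNGC, the core of the antioxidant type of element to which NFE2L1 and its relatives bind, was found on either strand in 13.3% of all promoters and in 12 of the 40 member promoters (30%). Their genes were PSMA4, PSMB3, PSMC4, PSMC5, PSMD1, PSMD3, PSMD5, PSMD9, PSMD12, PSME1, PSME2 and PSME4. CCAAT was found in 34.6% of all promoters and in 17 of the 40 (42.5%), and CCGGAAG, an ETS type of site, in 10.3% and in 12 (30%). Of the 12 with the first motif, PSMA4, PSMD1, PSMD5 and PSMD12 fell in Panc1, PSME1 and PSME4 rose, and PSMB3, PSMC4, PSMC5, PSMD3, PSMD9 and PSME2 were not called. In MiaPaCa2 PSMB3, PSMC4, PSMD1, PSMD9, PSME1 and PSME4 fell, and the others of the 12 were not called. Stretches around it are shown for a gene of each of 4 compartments, alpha, beta, ATPase and lid, the match in capitals, 5′ to 3′ in the direction of the gene. They lie at chr15:78540644-78540684 and, on the same strand, at chr17:38752621-38752661 and chr17:63827648-63827688, and on the reverse strand at chr17:67366718-67366758.
PSMA4: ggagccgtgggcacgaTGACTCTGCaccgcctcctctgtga
PSMB3: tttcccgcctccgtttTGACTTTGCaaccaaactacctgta
PSMC5: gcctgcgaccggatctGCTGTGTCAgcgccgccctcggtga
PSMD12: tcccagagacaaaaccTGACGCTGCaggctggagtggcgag
The match in PSMC5 reads in the opposite direction to those in the other genes.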

How the data were processed

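RNA-seq of 12 libraries was used. Per the submitters' processing notes and the series design text, adaptors and poor reads were removed, TopHat2 2.0.14 aligned the rest to hg19, and STAR 2.5.2a gave FPKM. The authors deposited 1 file per library, with an FPKM for each gene symbol. The sources used here do not give library preparation, strandedness or read number, and no interval from counting error can be given, because whole reads could not be recovered. FPKM summed to between 360765 and 392610 per library.

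limma 3.58.1 (R 4.3.3) was fitted to log2(FPKM + 1) with 1 mean per group over all 12 libraries (8 residual degrees of freedom), moderated with a trend. Tests were two-sided, with Benjamini-Hochberg adjustment over the 13340 genes that averaged 1 FPKM or more in Panc1 or in MiaPaCa2 (6 libraries each). Calls were made below an adjusted p of 0.05. A fold on this scale understates the change of low genes. The fit was checked on simulated data.

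The members, the gene lists and the markers were chosen with earlier results of these data known. Genes described with full values follow a rule: PSMB5, PSMB6, PSMB7, PSMB10, PSMD14 and the 4 PSME genes, the 4 largest called rises and falls without overlap in each line and between the wild-type lines, and the 4 largest differences between lines. PSMD12 has its values given outside this rule, after they were seen, and other members appear by their change alone, to complete their groups. Positions, transcript length and GC content came from GENCODE release 44 on GRCh37, where 19800 of 22650 symbols had a single position. Alternatives were another pseudocount (0.1), no filter or one of 5 FPKM, scaling to the same sum (TPM scale), by the median ratio or by quantiles, no trend, array weights, the replicate number as a block, a separate fit of each line, and each library left out in turn. A GC and length correction was added after the data were seen. A group reduced to 2 libraries is taken to have the spread of the rest.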

Additional observations from a re-analysis of the deposited data

Results flagged for a closer look

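The 17 members whose change with knockout differed between the lines by limma's test of the difference (adjusted p below 0.05) are given with that difference, the log2 change in Panc1 minus that in MiaPaCa2. In the alpha ring these were PSMA1 (-0.41), PSMA2 (-0.78), PSMA4 (-0.45) and PSMA6 (0.21). In the beta ring they were PSMB3 (0.25), PSMB4 (0.30), PSMB5 (0.22) and the inducible PSMB10 (0.55). Among the ATPases PSMC1 (0.33) and PSMC2 (-0.47) differed. Of the other genes of the regulatory particle PSMD2 (0.18), PSMD5 (-0.35), PSMD6 (-0.34), PSMD10 (-0.67) and PSMD12 (-0.45) did so, and of the activators PSME1 (0.53) and PSME4 (0.57). After the GC and length correction the differences of PSMA1, PSMC2, PSMD5, PSMD6 and PSMD12 no longer passed. After quantile normalization those of PSMA6, PSMB3, PSMB5 and PSMD2 did not pass. That of PSMB3 was also lost with scaling to the same sum, with array weights, and without wild-type replicate 2 or knockout replicate 3 of Panc1 or wild-type replicate 2 of MiaPaCa2. That of PSMD2 was also lost with scaling to the same sum, with no filter, with no trend, and without any 1 library other than knockout replicate 1 of Panc1 and wild-type replicate 1 and knockout replicate 3 of MiaPaCa2. No other rule for a closer look applied, since groups of 3 libraries are too small for a search for outlying values.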

How the results depend on the processing

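Counts of called members were compared over 22 or 23 alternatives per comparison. In Panc1 the 6 higher became 3 with scaling to the same sum and 14 with scaling by the median ratio, and the 17 lower stayed within 1.5 times. In MiaPaCa2 the 1 higher became 2 after quantile normalization and 3 with array weights, and the 19 lower became 11 after quantile normalization and 11 with the line fitted alone. For the difference between lines the 9 higher became 18 with scaling by the median ratio and 17 after the GC and length correction, and the 8 lower became 13 with array weights and 4 after that correction. With array weights, 3462 of 13340 genes were higher in MiaPaCa2 and 5954 lower for the difference. With 1 library left out, the counts ran from 4 to 7 higher and 16 to 19 lower in Panc1, from 1 to 1 higher and 11 to 18 lower in MiaPaCa2, from 7 to 12 higher and 8 to 12 lower for the difference, and from 5 to 6 higher and 25 to 30 lower between the wild-type lines. Over all genes the same fits gave 2638 to 3037 higher and 4988 to 5775 lower in Panc1. They gave 1762 to 2389 higher and 1650 to 2199 lower in MiaPaCa2. For the difference the ranges were 2427 to 2679 and 4487 to 5055, and between the wild-type lines 5358 to 5659 and 5257 to 5520. The low count of 11 members in MiaPaCa2 came without wild-type replicate 2 and without wild-type replicate 3. After the GC and length correction 3 called changes turned direction, PSMA5 in Panc1 to 0.0619, PSMD7 in Panc1 to 0.0144 and PSME4 between the wild-type lines to -0.0758, and none of them passed there. The cause of these shifts was not tested. Of the named members called, 9 of 14 kept their call under every alternative in Panc1, 8 of 10 in MiaPaCa2, 7 of 10 for the difference and 17 of 18 between the wild-type lines. With the replicate number as a block, the counts were 6 higher and 18 lower in Panc1, 1 and 17 in MiaPaCa2, 10 and 9 for the difference, and 5 and 28 between the wild-type lines. The numbers do not pair the libraries: deviations of libraries with the same number correlated at 0.017 to 0.078 in Panc1 and at -0.17 to -0.0019 in MiaPaCa2, and 4 of 12 libraries correlated best with their own number. A count test could not be run without counts. Read depth is unknown, so what it limits could not be given.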
